A study of Homo sapiens with 12 samples.

Results

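The 41 genes described here encode nucleolar ribosome biogenesis factors, the proteins that transcribe, modify, cleave and fold ribosomal RNA and assemble it into subunits. They were chosen by name, with earlier results of these data known. All 41 were found among the 60504 features of the deposited table and among the 14391 genes tested. RNA was measured in KMS-11 cells, a human multiple myeloma (malignant plasma cell) line that carries a translocation driving high levels of NSD2, a histone H3 methyltransferase formerly named WHSC1. All 4 groups, with 3 libraries labelled as biological replicates in each, are the TKO derivative (translocated allele knockout, in the usual name of this line), whose genotype is given as KMS-11 WHSC1(+/-). The TKO group carried no vector, WT carried an NSD2 expression vector, and D1240A and F1295A carried vectors for NSD2 with the amino acid change in the name. No group with an empty vector was analysed here, and the sources used here do not give whether the vector lines are clones or pools. A difference from TKO therefore covers everything that separates a vector line from its parent. A lower level per cell and a lower share of cells expressing a gene cannot be told apart in these bulk libraries.

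Ribosome production starts in the nucleolus, where RNA polymerase I transcribes a long precursor of ribosomal RNA. Small nucleolar RNPs then mark the precursor for methylation (box C/D particles, with the methyltransferase FBL) or pseudouridylation (box H/ACA particles, with the pseudouridine synthase DKC1). A large processome builds the small subunit, and a succession of assembly factors builds the large one. Many of these genes are textbook targets of the transcription factor MYC, and myeloma cells, which make much protein, depend on a high output of ribosomes.

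Values are FPKM, read fragments divided by gene length and by library total, after rescaling between libraries, so levels can be set side by side between genes. How deeply each library was sequenced is unknown. Precision rests on the spread between libraries within groups, pooled over all groups and moderated by the variance trend over all tested genes. Nothing in the labels says whether the replicates were grown separately, and p-values measure the spread between these libraries only. The label check held: NSD2 averaged 60.1 FPKM ± 2.26 (SD, n = 3) in TKO, 190.5 ± 3.88 in WT, 250.7 ± 8.44 in D1240A and 164 ± 6.56 in F1295A, with no overlap between TKO and any vector line. Of 9 plasma cell markers, 6 were at or above 1 FPKM in every library, and their summed level was 2337 to 2550 in TKO and 3820 to 5045 in the vector lines. Single markers went both ways: against TKO 5 of 9 rose and 3 fell in WT, 6 rose and 2 fell in D1240A, and 5 rose and 3 fell in F1295A. Summed markers of T cells, myeloid, epithelial, fibroblast and erythroid cells stayed between 0.00987 and 3.63 FPKM, with FCGR3A, KRT19, COL1A2 and COL3A1 at 0 in all 12 libraries. Erythroid markers summed to 1.34 to 3.63 in TKO and to 0.43 or less in the vector lines; their part in the results was not tested. D1240A replicate 2 stood apart: ribosomal RNA features took 52.7% of its deposited FPKM, against 1.66 to 2.47% in the other 11 libraries. Against the other D1240A libraries, 27 of the 41 genes were lower in it after rescaling, with a median log2 difference of -0.02 and a range from -0.35 to 0.26.

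Promoter sequence from RefSeq (GRCh38.p14) was at hand for 34 of the 41 genes. A search of the 250 bases before each start found CACGTG, the E-box letters that MYC is known to bind, in 4 of the 34 (11.8%: DDX21, IMP4, LYAR and UTP20), against 1107 of 9580 tested genes with an entry (11.6%). CACGTG reads the same on both strands. CCGGAAG, a core of ETS-family sites, was searched on both strands (the other reads CTTCCGG) after the data had been seen, and stood in 12 of 34 (35.3%) against 1888 of 9580 (19.7%). The share with E-box letters was thus close to that of all tested genes. The stretches that follow lie just upstream of 5 of the genes with the largest changes, and of UTP20, with its E-box letters in capitals, and GAR1, with its CTTCCGG in capitals. Bases inside annotated exons are left out, and every line runs 5′ to 3′ on the gene's own strand.
NPM1, chr5:171387016-171387115, plus strand: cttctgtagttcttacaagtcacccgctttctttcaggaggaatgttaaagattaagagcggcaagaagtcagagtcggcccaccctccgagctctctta
NHP2, chr5:178153968-178154067, minus strand: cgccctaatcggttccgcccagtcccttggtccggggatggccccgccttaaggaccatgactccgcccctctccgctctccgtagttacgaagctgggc
DKC1, chrX:154762642-154762741, plus strand: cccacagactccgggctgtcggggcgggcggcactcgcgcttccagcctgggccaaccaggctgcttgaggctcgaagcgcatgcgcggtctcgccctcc
LAS1L, chrX:65534788-65534887, minus strand: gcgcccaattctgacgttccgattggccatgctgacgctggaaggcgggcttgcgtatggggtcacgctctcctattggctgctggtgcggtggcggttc
RRP1, chr21:43789413-43789512, plus strand: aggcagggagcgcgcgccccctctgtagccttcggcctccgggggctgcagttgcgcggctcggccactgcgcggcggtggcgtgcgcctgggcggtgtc
UTP20, chr12:101280005-101280104, plus strand: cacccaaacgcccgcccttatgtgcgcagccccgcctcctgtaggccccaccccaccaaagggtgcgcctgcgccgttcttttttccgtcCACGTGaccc
GAR1, chr4:109815411-109815509, plus strand: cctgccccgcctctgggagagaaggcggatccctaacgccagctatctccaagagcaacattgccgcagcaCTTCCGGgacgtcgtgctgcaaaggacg

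The 41 genes did not move together between TKO and the vector lines. Between WT and TKO, 7 rose and 13 fell (limma, adjusted p under 0.05 over all tested genes), which is 48.8% of them, and 49.7% of all tested genes were called (25.8% higher, 23.9% lower). Between D1240A and TKO, 4 rose and 19 fell (56.1%, against 44.5% of all tested genes, 23.3% higher and 21.2% lower). Between F1295A and TKO, 6 rose and 12 fell (43.9%, against 45.7%, 23.9% higher and 21.8% lower). The median log2 change of the 41 was -0.07, -0.10 and -0.05, against -0.005, 0.013 and -0.001 over all tested genes. These 3 comparisons share the TKO libraries. In all 3 of them NPM1, NOLC1, NHP2 and NOP16 rose, and LYAR, UBTF, TCOF1, DKC1, BYSL, PNO1, NOP2, RRP1, RRP1B, LAS1L and PPAN fell. A further 15 genes were called in none, 11 in 1 or 2, and no gene was called in opposite directions. How many of all tested genes show each of these patterns was not counted, so the pattern counts have no background beside them.

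**Figure D1:**
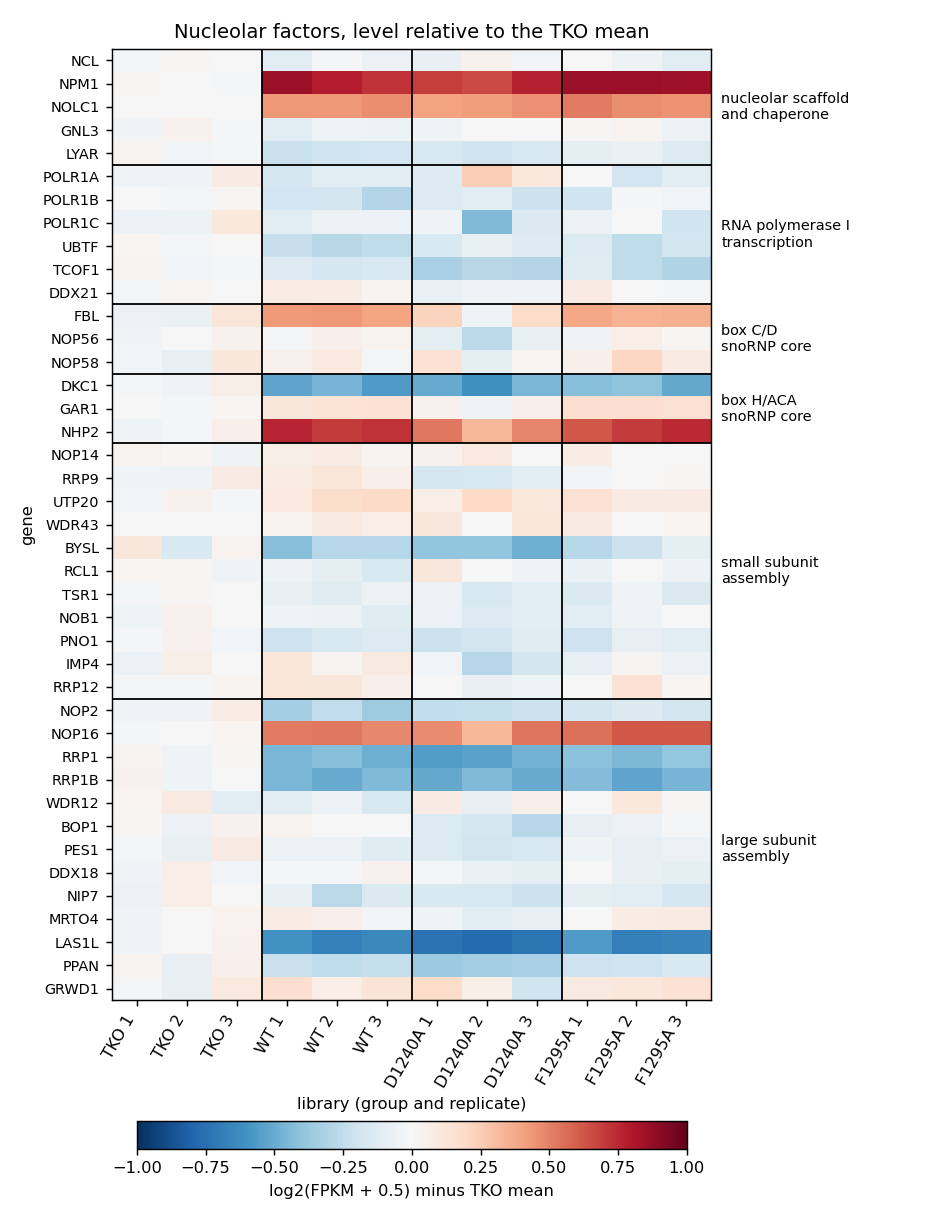
Log2 change of each of the 41 genes (rows, ordered by role) in each of the 12 libraries (columns) against the mean of the 3 TKO libraries; color gives the change. NPM1, NHP2, NOP16 and NOLC1 are raised and LAS1L, DKC1, RRP1 and RRP1B lowered in all 9 vector libraries, and most other rows stay pale.

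Among the 5 scaffold and chaperone genes, NPM1 and NOLC1 rose in every vector line, LYAR fell in every one, and NCL and GNL3 passed no test. NPM1 (ENSG00000181163, chr5:171387116-171411137), the histone and ribosome chaperone nucleophosmin, was the most abundant of the 41. It read 1299, 1280.4 and 1279 FPKM without a vector, 2344, 2219 and 2120.5 in WT, 2076, 2037 and 2197 in D1240A, with 2341, 2333 and 2319 in F1295A. Every vector library was far above every TKO library. The log2 changes were 0.79 ± 0.04 (SE, adjusted p = 1.96e-08) in WT, 0.71 ± 0.04 (adjusted p = 6.57e-08) in D1240A and 0.86 ± 0.04 (adjusted p = 1.14e-08) in F1295A. The reference annotation lists 45 numbered NPM1 pseudogenes, whose summed level reached at most 10.7 FPKM, so reads could have been split among near-identical copies.

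NOLC1 (ENSG00000166197, chr10:102152176-102163871), which encodes the snoRNP chaperone Nopp140, held the tightest TKO values of the group. It read 178 FPKM in each TKO library (SD 0.47), 241, 240.2 and 246 in WT, 236, 238 and 244 in D1240A, with 255, 246 and 244 in F1295A. No vector library came near TKO. The log2 changes were 0.44, 0.43 and 0.48, each with an SE of 0.03 (adjusted p = 5.84e-08, 1.15e-07 and 3.95e-08). LYAR, a nucleolar regulator of growth, moved less: 44.8, 42.8 and 43.3 FPKM in TKO, 37.4, 37.9 and 38.1 in WT, 38.9, 37.8 and 38.9 in D1240A, with 41.1, 41.7 and 39.6 in F1295A. It was below TKO in all 9 vector libraries, with log2 changes of -0.21, -0.18 and -0.10, and its call in F1295A was lost without TKO replicate 1 or F1295A replicate 3 (adjusted p 0.0897 to 0.093). NCL, the abundant nucleolar protein nucleolin, averaged 637, 611, 628 and 613 FPKM over TKO, WT, D1240A and F1295A, and GNL3, nucleostemin, averaged 106, 102, 106 and 106.

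None of the 6 genes for RNA polymerase I transcription rose in any vector line, where 23.3 to 25.8% of all tested genes did. In WT 3 fell (50%, against 49.7% of all tested genes called), in D1240A 3 (50%, against 44.5%) and in F1295A 2 (33.3%, against 45.7%). Of 11 other polymerase I genes, 5, 3 and 4 rose in WT, D1240A and F1295A, and 3 fell in each (72.7%, 54.5% and 63.6% called). UBTF, which encodes the factor that keeps ribosomal DNA open for transcription, read 83.7, 82 and 82.7 FPKM in TKO, 70.6, 68.2 and 69.3 in WT, 74.6, 78.7 and 75.7 in D1240A, with 75.2, 69.4 and 73 in F1295A. All vector libraries lay below TKO, and the log2 changes were -0.25, -0.12 and -0.19 (adjusted p = 6.24e-05, 0.0142 and 0.000644). Leaving out D1240A replicate 1 took the D1240A value to an adjusted p of 0.0501. TCOF1, the treacle protein that carries polymerase I and UBTF in the nucleolus, read 34.8, 33.2 and 33.7 in TKO, 30.9, 30.2 and 30.4 in WT, 26.9, 27.9 and 27.5 in D1240A, with 31.1, 28.3 and 27.4 in F1295A. It was again below TKO in every vector library, with log2 changes of -0.15, -0.30 and -0.23 (adjusted p = 0.0142, 0.000177 and 0.00129), and the call in WT was lost without TKO replicate 1 (adjusted p = 0.0526).

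POLR1B, the second-largest polymerase I subunit, averaged 22 FPKM in TKO, 18.8 in WT, 19.8 in D1240A and 20.8 in F1295A, and fell in WT (log2 change -0.22 ± 0.05, adjusted p = 0.00405). Its call in D1240A (-0.15, adjusted p = 0.0367) was lost in 5 of the fits that left out 1 library. POLR1A, the largest subunit, POLR1C, a subunit shared with polymerase III, and the RNA helicase DDX21 were called in no comparison with TKO. POLR1C lies across exons of 4 genes on the opposite strand, the highest at 47.8 FPKM, and because the strand setting is not given its reads cannot be told apart from theirs.

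The 3 box C/D core proteins parted. FBL (ENSG00000105202, chr19:39834458-39846414), the methyltransferase fibrillarin, read 396, 394 and 449.7 FPKM in TKO, 553, 558 and 542 in WT, 482, 401 and 468 in D1240A, with 539.8, 525 and 529 in F1295A. WT and F1295A lay wholly above TKO, and D1240A overlapped it. FBL rose in WT (log2 change 0.42 ± 0.07, adjusted p = 0.000232) and in F1295A (0.36 ± 0.07, adjusted p = 0.000733), and its value in D1240A was 0.12 without a call. NOP56 and NOP58, the paired scaffold proteins of the same particle, moved little. NOP56 averaged 221, 225, 201 and 224 FPKM over TKO, WT, D1240A and F1295A and fell in D1240A only by test (-0.14, adjusted p = 0.0342), a call lost without D1240A replicate 2, TKO replicate 2 or TKO replicate 3 (adjusted p 0.0727 to 0.117). NOP58 averaged 107, 110.1, 109 and 116 and was never called.

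The box H/ACA core changed in opposite directions within the particle: NHP2 rose and DKC1 fell in every vector line. NHP2 (ENSG00000145912, chr5:178149460-178153967), a small RNA-binding core protein, read 170.4, 174 and 181 FPKM in TKO, 297, 284 and 289 in WT, 253, 221 and 245 in D1240A, with 269, 284 and 294 in F1295A. TKO was below every vector library, and D1240A was below both other vector lines. The log2 changes were 0.73 ± 0.05 (adjusted p = 2.53e-07), 0.45 ± 0.05 (adjusted p = 1.85e-05) and 0.69 ± 0.05 (adjusted p = 4.63e-07). NHP2 shares exon bases with RMND5B on the opposite strand, which reached 25.9 FPKM.

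DKC1 (ENSG00000130826, chrX:154762742-154777689), dyskerin, the enzyme of the particle, read 133, 131 and 139.9 FPKM in TKO, 93.4, 97.2 and 90.8 in WT, 94.6, 87.8 and 98 in D1240A, with 100.2, 102 and 94.5 in F1295A. No vector library reached the TKO range. The log2 changes were -0.52 ± 0.05 (adjusted p = 2.23e-06), -0.53 ± 0.05 (adjusted p = 2.74e-06) and -0.45 ± 0.05 (adjusted p = 9.34e-06). The ratio of the NHP2 level to the DKC1 level was therefore 1.28, 1.33 and 1.29 in TKO, 3.18, 2.93 and 3.18 in WT, 2.68, 2.52 and 2.51 in D1240A, with 2.69, 2.8 and 3.12 in F1295A. It was higher in each vector library than in any TKO library; the ratio itself was not tested. GAR1, the third core protein, averaged 78.4 FPKM in TKO, 86 in WT, 79.5 in D1240A and 87.8 in F1295A, and rose in WT (0.13, adjusted p = 0.00216) and F1295A (0.16, adjusted p = 0.000587).

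**Figure D2:**
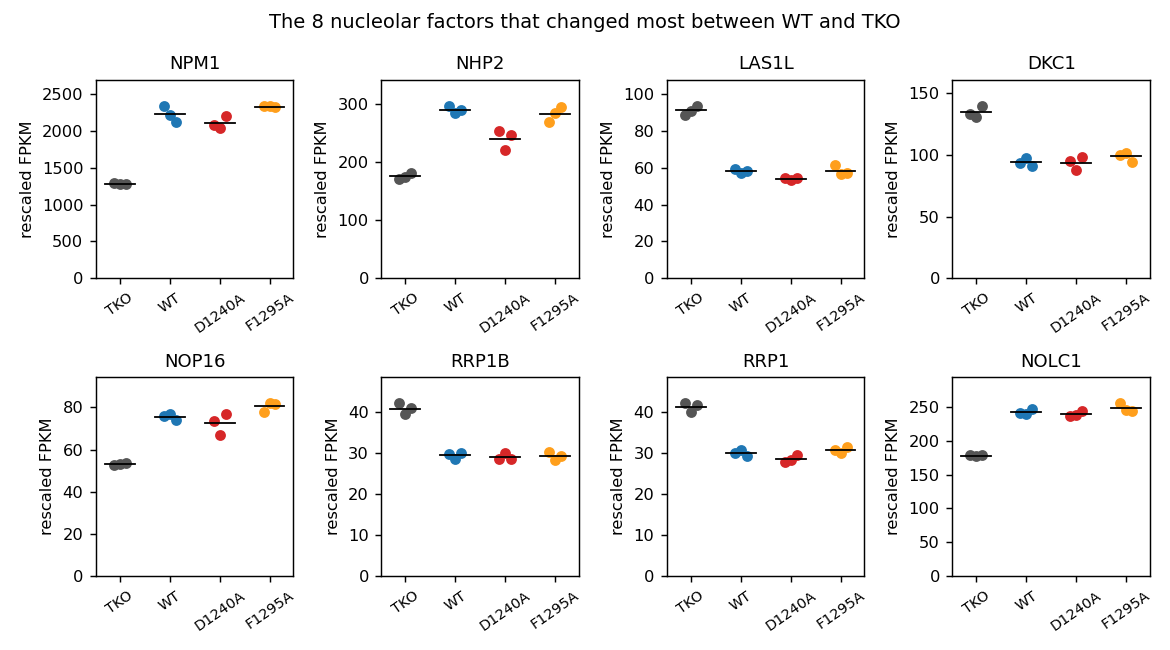
Rescaled FPKM (vertical axes, each starting at 0) of the 8 genes with the largest changes in each of the 12 libraries (points). Bars give the group mean (n = 3). The TKO points lie apart from those of all 3 vector groups in every panel: lower for NPM1, NHP2, NOP16 and NOLC1, higher for LAS1L, DKC1, RRP1 and RRP1B.

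Of the 11 small subunit genes, 1 rose and 2 fell in WT (27.3%, against 49.7% of all tested genes). In D1240A none rose and 5 fell (45.5%, against 44.5%), and in F1295A none rose and 3 fell (27.3%, against 45.7%). Their log2 changes ran from -0.42 to 0.16. BYSL, bystin, which acts in late small subunit maturation, read 31, 25.8 and 29.3 FPKM in TKO, 21.1, 23.3 and 23.4 in WT, 21.7, 21.6 and 20.3 in D1240A, with 23.4, 24.6 and 26.9 in F1295A. WT and D1240A did not overlap TKO, and F1295A did. The log2 changes were -0.33 ± 0.07 (adjusted p = 0.00222), -0.42 ± 0.07 (adjusted p = 0.000504) and -0.20 ± 0.07 (adjusted p = 0.0427), and the last was lost in 7 of the 12 fits that left out 1 library.

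PNO1, the partner of the endonuclease NOB1, averaged 31.4 FPKM in TKO, 27.9 in WT, 27.8 in D1240A and 28.6 in F1295A, with log2 changes of -0.17, -0.18 and -0.13 (adjusted p = 0.00551, 0.00485 and 0.0203). The call in F1295A was lost without TKO replicate 2 or F1295A replicate 1 (adjusted p 0.0772 to 0.0832). NOB1 itself averaged 101, 95.8, 93.9 and 97.2 FPKM and was not called. UTP20, a very large processome protein and the least abundant of the 41, read 5.37, 5.68 and 5.41 FPKM in TKO and 5.91, 6.26 and 6.35 in WT. It rose in WT (0.16 ± 0.06, adjusted p = 0.0386), a call lost without TKO replicate 1, TKO replicate 3, WT replicate 2 or WT replicate 3 (adjusted p 0.0996 to 0.115).

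In D1240A 3 further small subunit genes fell against TKO: RRP9, a U3 snoRNP protein (-0.15, adjusted p = 0.0112), TSR1, a GTPase-like late factor (-0.11, adjusted p = 0.0368), and IMP4, a U3-associated protein (-0.16, adjusted p = 0.0414). The call of TSR1 ended in 5 and that of IMP4 in 6 of the 12 fits that left out 1 library, D1240A replicate 2 among them. TSR1 also fell in F1295A (-0.11, adjusted p = 0.0384), a call that ended in 7 of the 12. NOP14, WDR43, RCL1 and RRP12 were called in no comparison with TKO. IMP4 shares exon bases with CCDC115 on the opposite strand, which reached 27.65 FPKM. TSR1 does so with SGSM2 and SRR, the higher of which reached 11.96. Without strand, the levels of IMP4 and TSR1 are uncertain.

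The 13 large subunit genes included LAS1L, which fell furthest of the 41. In WT 1 of the 13 rose and 6 fell (53.8%, against 49.7% of all tested genes), in D1240A 1 rose and 8 fell (69.2%, against 44.5%), and in F1295A 1 rose and 5 fell (46.2%, against 45.7%). LAS1L (ENSG00000001497, chrX:65512582-65534775), the endonuclease that cuts within the second internal spacer of the precursor, read 88.6, 90.9 and 93.7 FPKM in TKO, 59.6, 56.9 and 58.2 in WT, 54.4, 53.1 and 54.6 in D1240A, with 61.4, 56.4 and 57.2 in F1295A. The TKO and vector libraries were widely separated. The log2 changes were -0.64 ± 0.04 (adjusted p = 5.44e-08), -0.75 ± 0.04 (adjusted p = 2.19e-08) and -0.64 ± 0.04 (adjusted p = 7e-08).

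RRP1 and RRP1B, related precursor processing factors that lie near each other on chromosome 21, fell side by side. RRP1 (ENSG00000160214, chr21:43789513-43805293) read 42.2, 40 and 41.6 FPKM in TKO, 30, 30.6 and 29.3 in WT, 27.8, 28.4 and 29.6 in D1240A, with 30.9, 30.1 and 31.4 in F1295A. RRP1B (ENSG00000160208, chr21:43659548-43696079) read 42.2, 39.6 and 40.9 in TKO, 29.7, 28.6 and 30 in WT, 28.6, 30 and 28.7 in D1240A, with 30.2, 28.3 and 29.4 in F1295A. All vector libraries of both genes lay below all TKO libraries. The log2 changes of RRP1 were -0.46, -0.52 and -0.42 (adjusted p = 8.18e-07, 3.69e-07 and 2.07e-06), and those of RRP1B were -0.47, -0.48 and -0.48 (adjusted p = 9.99e-07, 1.02e-06 and 1.04e-06), each with an SE of 0.04.

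NOP16 (ENSG00000048162, chr5:176383938-176388975), an early large subunit factor, was the one gene of the 13 that rose. It read 52.6, 52.9 and 53.7 FPKM in TKO, 76.2, 76.9 and 74.1 in WT, 73.7, 67.1 and 77 in D1240A, with 77.9, 82 and 81.9 in F1295A. No vector library overlapped TKO, and the log2 changes were 0.51, 0.45 and 0.60, each with an SE of 0.04 (adjusted p = 1.98e-06, 7.95e-06 and 6.02e-07). NOP16 shares exon bases with HIGD2A and ARL10 on the opposite strand, the higher of which reached 94.8 FPKM, so its level is uncertain without strand.

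NOP2, the ribosomal RNA cytosine methyltransferase, and PPAN, an early assembly factor, fell in every vector line by smaller steps. NOP2 averaged 46.8 FPKM in TKO, 37.6 in WT, 39.6 in D1240A and 41.5 in F1295A (log2 changes -0.31, -0.23 and -0.17, adjusted p = 3.91e-05, 0.000446 and 0.00377). PPAN averaged 55.2, 46.6, 43.4 and 48.4 (log2 changes -0.24, -0.34 and -0.19, adjusted p = 0.00017, 1.22e-05 and 0.00126); it shares exons with its read-through transcript PPAN-P2RY11. In the PeBoW complex, which joins PES1, BOP1 and WDR12, BOP1 and PES1 fell in D1240A (-0.20, adjusted p = 0.00218, and -0.16, adjusted p = 0.00427), and WDR12 passed no test against TKO. NIP7, a late factor, fell in WT (-0.16, adjusted p = 0.0178) and D1240A (-0.17, adjusted p = 0.015), calls lost without TKO replicate 2, and also without WT replicate 2 and D1240A replicate 3 in turn (adjusted p 0.0543 to 0.0794). DDX18, MRTO4 and GRWD1 were called in no comparison with TKO. NIP7 and PES1 share exon bases with COG8 and TCN2 on the opposite strand, which reached 17.8 and 26.3 FPKM. Their levels are thus uncertain without strand, like that of NOP16.

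The summed level of the 41 genes was 4815 to 4928 FPKM in TKO, 5835 to 6065 in WT, 5456 to 5752 in D1240A and 6033 to 6102 in F1295A. Without NPM1 it was 3519 to 3649 in TKO, 3715 to 3771 in WT, 3420 to 3580.3 in D1240A and 3714 to 3766 in F1295A. Most of the rise in the sum thus came from NPM1, and without it D1240A overlapped TKO.

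The 8 genes with the largest changes sit in chromosome neighbourhoods that moved the same way. For each gene, 50 nearby tested genes on its chromosome, 25 on each side, were taken as its neighbours. Near a chromosome end, as for DKC1, the set was shifted inward to keep 50, so the sides were unequal. Between WT and TKO, the median log2 change of the neighbours was 0.54 for NPM1, 0.53 for NHP2, 0.62 for NOP16, 0.37 for NOLC1, -0.52 for DKC1, -0.25 for LAS1L, -0.35 for RRP1 and -0.39 for RRP1B. Of the 50 neighbours, 42 were called higher around NPM1, 39 around NHP2, 43 around NOP16 and 35 around NOLC1, with at most 2 called lower. Around DKC1 36 were called lower and 2 higher, around RRP1 and RRP1B 30 lower and 6 higher, and around LAS1L 26 lower and 11 higher. The stretches covered run from 2.26 Mb (DKC1) to 18.72 Mb (NPM1). NPM1, NOP16 and NHP2 lie on the same chromosome, where the stretch of NOP16 overlaps those of NPM1 and NHP2. RRP1 and RRP1B are each other's neighbours, so the 8 genes do not stand for 8 separate places.

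These same 8 were the genes of the 41 whose neighbours' median reached 0.25 in either direction between WT and TKO. They make up 19.5% of the 41, against 9.2% of all tested genes past that limit, which was chosen with the data known. The match with the 8 largest changes rests on that limit. LAS1L just passed it (-0.255), and TCOF1 (0.234) and RRP12 (0.225) just missed it. Genes with overlapping stretches were each counted. In D1240A and in F1295A, the same 8 and TCOF1 passed it (22% of the 41, against 8.71% and 9.48% of tested genes). In the comparisons among the 3 vector lines, none of the 41 passed it. Of the 33 genes within the limit between WT and TKO, 3 rose and 9 fell (36.4%), with log2 changes from -0.33 to 0.42. The share called among all tested genes within the limit was not computed, so this share has no background beside it.

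**Figure D3:**
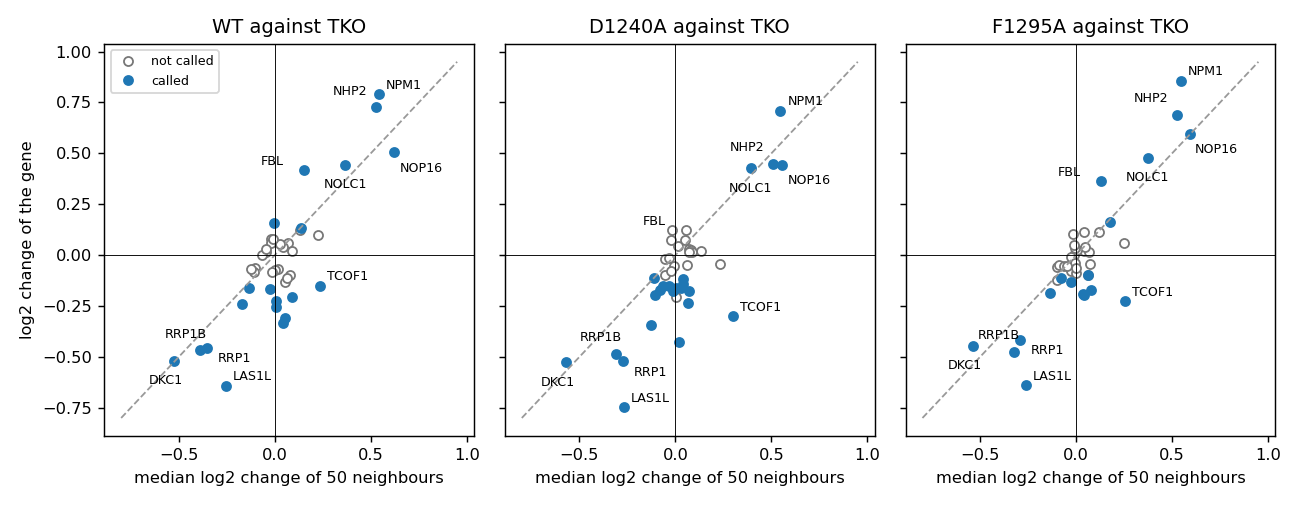
Log2 change of each of the 41 genes (vertical) against the median log2 change of its 50 nearest tested neighbours (horizontal), in WT, D1240A and F1295A against TKO; filled points were called, and the dashed line marks equal values. NPM1, NHP2, NOP16 and NOLC1 lie at the upper right and DKC1, RRP1, RRP1B and LAS1L at the lower left; TCOF1 lies below 0 among neighbours above 0.

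With each library's neighbour median subtracted, the 8 genes no longer behaved alike. DKC1 moved with its surroundings: its WT change went from -0.52 to 0.01 (adjusted p = 0.935). NOP16 went from 0.51 to -0.11 (adjusted p = 0.0639), RRP1 from -0.46 to -0.10 (adjusted p = 0.0604) and RRP1B from -0.47 to -0.08 (adjusted p = 0.104). LAS1L stayed lower than its neighbours (-0.39, adjusted p = 2.09e-05), and NPM1 (0.25, adjusted p = 0.000411), NHP2 (0.20, adjusted p = 0.00495) and NOLC1 (0.08, adjusted p = 0.0283) stayed higher. FBL, whose neighbours' median was 0.15, kept 0.26 (adjusted p = 0.00759).

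The subtraction also gave other values in the mutant lines. In F1295A, NPM1 kept 0.31 (adjusted p = 8.5e-05), LAS1L -0.38 (adjusted p = 3.23e-05) and NHP2 0.16 (adjusted p = 0.018), RRP1 kept -0.12 (adjusted p = 0.0323) and RRP1B -0.15 (adjusted p = 0.0069), and DKC1 stood at 0.09 (adjusted p = 0.129). In D1240A, LAS1L kept -0.48 (adjusted p = 5.44e-06), RRP1 -0.25 (adjusted p = 0.000561), RRP1B -0.17 (adjusted p = 0.00337) and NPM1 0.16 (adjusted p = 0.00835), and NHP2 stood at -0.06 (adjusted p = 0.363). TCOF1, whose surroundings rose, was further below them: -0.38 in WT (adjusted p = 5.49e-06), -0.60 in D1240A (adjusted p = 1.99e-07) and -0.48 in F1295A (adjusted p = 1.04e-06). Relative to neighbours, 4 of the 41 were higher and 11 lower in WT (46.1% of tested genes were called on that scale, 23.7% higher and 22.5% lower). In D1240A it was 1 higher and 16 lower (39.7%, 20.3% higher and 19.4% lower), and in F1295A 4 higher and 9 lower (41.8%, 21.6% higher and 20.2% lower).

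**Figure D4:**
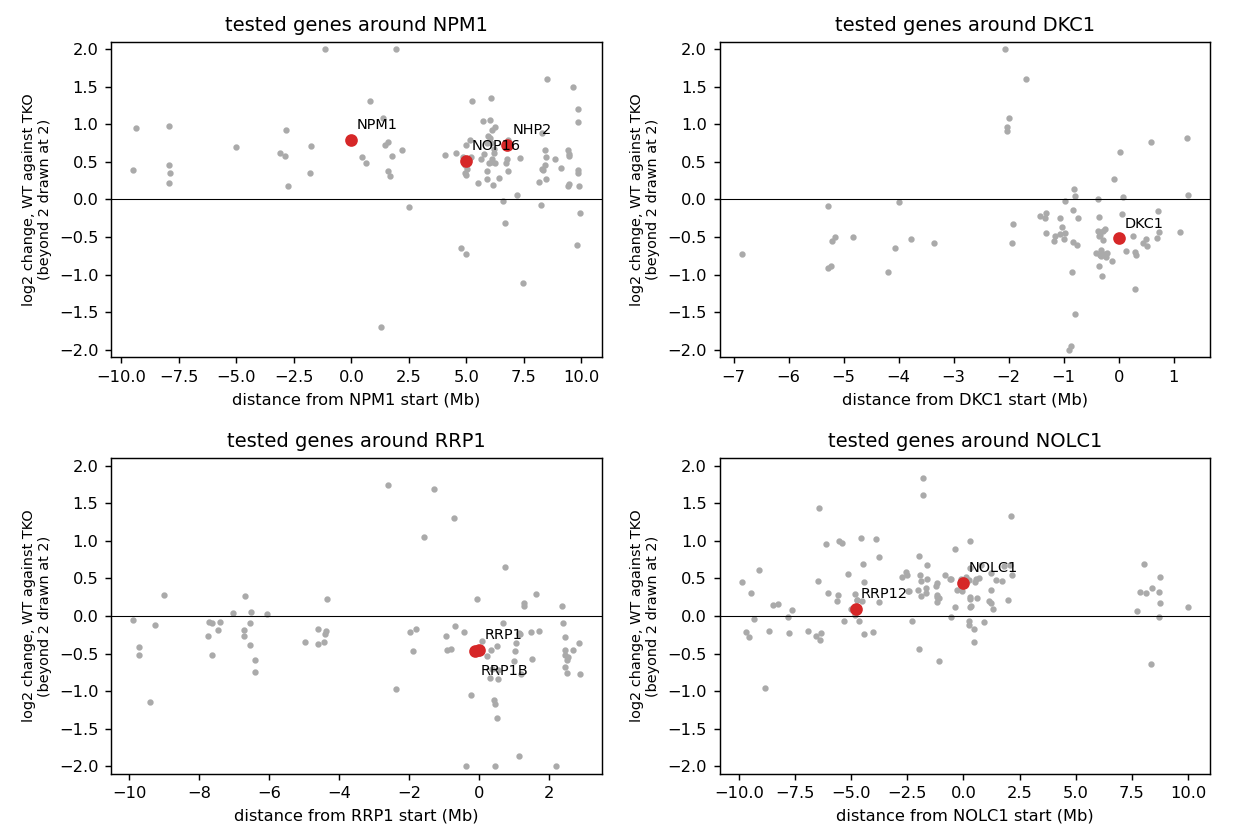
Log2 change between WT and TKO (vertical, values beyond 2 drawn at 2) of the tested genes within 10 Mb of NPM1, DKC1, RRP1 and NOLC1 (horizontal, distance from the gene's start in Mb); the 41 genes are marked and named. Genes around NPM1 and NOLC1 lie mostly above 0, and those around DKC1 and RRP1 mostly below it.

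The vector lines were next set against each other, without TKO. WT and F1295A were close over all 41 genes: none was called (limma; 2.71% of all tested genes were, 0.896% higher and 1.81% lower), 4 had an unadjusted p under 0.05 (16.2% of all tested), and log2 differences ranged from -0.12 to 0.15. The largest SE was 0.09, so small differences remain possible. The smallest adjusted p, 0.0861, belonged to NOP2, which was 0.14 higher in F1295A.

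D1240A was lower than WT for 10 genes and higher for 1, which is 26.8% of the 41, against 19.1% of all tested genes (8.21% higher, 10.9% lower). FBL differed by -0.30 ± 0.07 (adjusted p = 0.00892), NHP2 by -0.28 ± 0.05 (adjusted p = 0.00295), IMP4 by -0.24 ± 0.06 (adjusted p = 0.0149), RRP9 by -0.23 ± 0.04 (adjusted p = 0.00272) and BOP1 by -0.21 ± 0.04 (adjusted p = 0.0044). The D1240A libraries of these 5 lay below all WT libraries: RRP9 read 19.3, 19.3 and 20 against 22.9, 23.6 and 22.5 FPKM, IMP4 84.3, 70.5 and 75.6 against 93.2, 87.5 and 91.5, and BOP1 78.6, 76.8 and 70.9 against 88.8, 86.4 and 86.8. NOP56 (-0.16), TCOF1 (-0.15), RRP12, a factor in pre-ribosome export (-0.14), GAR1 (-0.11) and DDX21 (-0.11) followed with adjusted p from 0.0169 to 0.0488. UBTF was the one gene higher in D1240A (0.14, adjusted p = 0.0156). The count depended on single libraries: 6 genes were called without WT replicate 1, 5 without WT replicate 2 and 5 without D1240A replicate 2, the library rich in ribosomal RNA features, when 15.6% of tested genes were called (6.74% higher, 8.87% lower). Without either of these WT replicates, the share of all tested genes called was also below 19.1%. The loss of calls was therefore not limited to the 41 genes, but in each of these fits they lost a larger part of their calls than all tested genes did. With all libraries, the 26.8% called among the 41 was above the 19.1% of all tested genes. Without D1240A replicate 2, the 5 called were a smaller share of the 41 than the 15.6% called among all tested genes. FBL (-0.21), NHP2 (-0.22), IMP4 (-0.18), RRP9 (-0.22) and BOP1 (-0.23) were the 5 called without D1240A replicate 2; IMP4 lost its call without WT replicate 1 (adjusted p = 0.0584).

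Between D1240A and F1295A, 4 genes were lower in D1240A and none higher (9.76%, against 6.09% of all tested genes, 3.00% higher and 3.09% lower). They were NHP2 (-0.24 ± 0.05, adjusted p = 0.0208), PPAN (-0.16 ± 0.04, adjusted p = 0.0305), NPM1 (-0.15 ± 0.04, adjusted p = 0.0493) and GAR1 (-0.14 ± 0.03, adjusted p = 0.0158). All 4 calls depended on which libraries entered: 2 genes were called without D1240A replicate 2, none without F1295A replicate 2, and 1 without F1295A replicate 3. NHP2 and GAR1, both box H/ACA proteins, were thus lower in D1240A than in either other vector line, and the DKC1 means of the 3 vector lines lay between 93.5 and 98.8 FPKM.

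With the neighbours' median subtracted, D1240A was lower than WT for 7 genes and higher for none (18.1% of tested genes were called, 7.54% higher and 10.5% lower): TCOF1, NHP2, RRP9, IMP4, RRP1, BOP1 and PPAN. F1295A and WT differed for none by limma (2.24%, 0.750% higher and 1.49% lower). D1240A was lower than F1295A for NHP2 and PPAN and higher for none (4.68%, 2.27% higher and 2.41% lower).

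**Figure D5:**
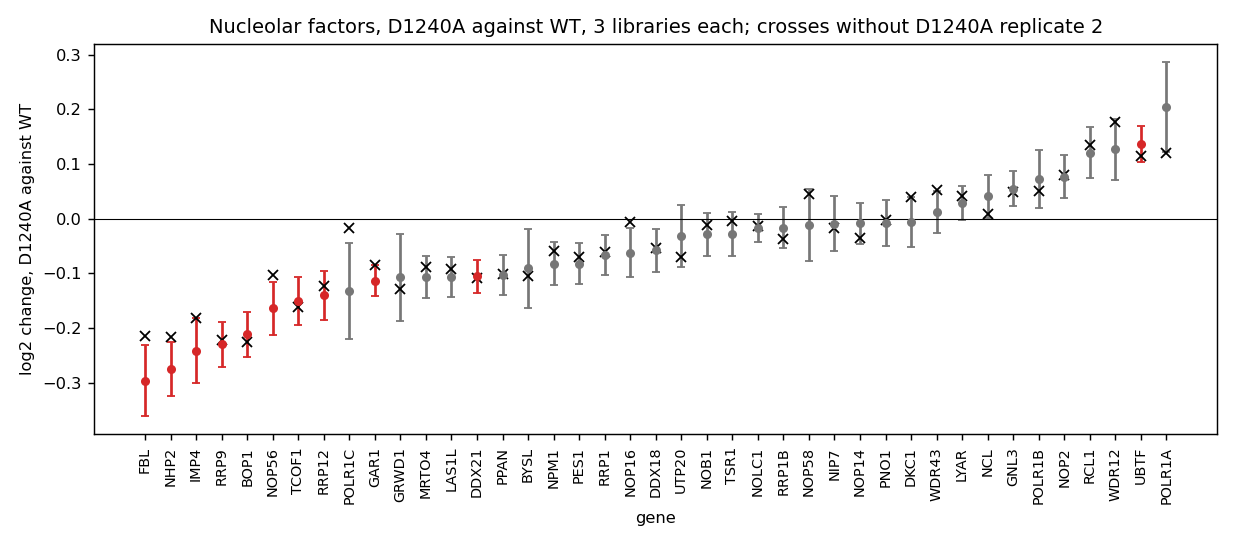
Log2 difference between D1240A and WT for each of the 41 genes (points) with ± 1 SE (error bars); red marks called genes, and crosses give the value without D1240A replicate 2. Of the 11 called genes, 10 lie below 0 and UBTF above, and the crosses of FBL and NHP2 stand nearer to 0 than their points.

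Of 127 further ribosome biogenesis genes in 5 lists, all tested, 23 rose and 39 fell in WT against TKO (48.8%), 20 rose and 30 fell in D1240A (39.4%), and 27 rose and 28 fell in F1295A (43.3%). Over all tested genes the shares were 49.7%, 44.5% and 45.7%, so the totals of the 127 were near the background. By direction, all tested genes gave 25.8% higher and 23.9% lower in WT, and 23.3% and 21.2% in D1240A. In F1295A they gave 23.9% and 21.8%. The 127 leaned toward falls in WT and D1240A, where all tested genes leaned slightly toward rises. Their median log2 changes were -0.04, -0.02 and -0.01. In WT, 5 of 11 other polymerase I genes rose and 3 fell (72.7% called, against 49.7% of all tested genes). Of 45 other small subunit genes 3 rose and 13 fell (35.6%), and of 50 other large subunit genes 11 rose and 19 fell (60%). Among 7 other snoRNP genes 2 rose and 1 fell (42.9%), and among 14 nuclear exosome genes 2 rose and 3 fell (35.7%).

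Of these lists, RSL24D1 and UTP14A were among the genes with the smallest adjusted p in every comparison with TKO. RSL24D1, a late large subunit factor, averaged 89.3 FPKM ± 1.97 (SD, n = 3) in TKO, 134 ± 3.47 in WT, 126 ± 2.79 in D1240A and 130.04 ± 2.15 in F1295A, with log2 changes of 0.58, 0.50 and 0.54. UTP14A, a processome protein on chromosome X, averaged 57.7, 40.8, 43.2 and 44 FPKM, with log2 changes of -0.49, -0.41 and -0.39. DIS3, a catalytic exosome subunit, rose from 13.2 to 21.2 FPKM in D1240A (0.66, adjusted p = 8.39e-07). Between D1240A and WT, 16 of the 127 were higher and 11 lower (21.3%, against 19.1% of all tested genes), among them LSG1, a late GTPase (0.31, adjusted p = 0.000331), the large subunit factor EBNA1BP2 (-0.21, adjusted p = 0.00197) and NOC2L (-0.16, adjusted p = 0.0029). Between F1295A and WT, RRP36 (0.12, adjusted p = 0.027) and the kinase RIOK2 (0.29, adjusted p = 0.0383) were higher and none lower (1.57%, against 2.71%). Between D1240A and F1295A, 3 were higher and 5 lower (6.3%, against 6.09%), with NOL9 (0.39, adjusted p = 0.0108) and NIFK (0.20, adjusted p = 0.0136) higher and EBNA1BP2 (-0.16, adjusted p = 0.0248) lower.

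MYC, the transcription factor best known for driving this gene class, differed between all 4 groups. It read 155.6, 153.9 and 153.6 FPKM in TKO, 248, 231 and 235 in WT, 168, 179 and 165 in D1240A, with 203, 202 and 208 in F1295A. No groups overlapped, and the order was TKO, D1240A, F1295A, WT. Against TKO the log2 changes were 0.62 (adjusted p = 5.27e-08) in WT, 0.14 (adjusted p = 0.00627) in D1240A and 0.41 (adjusted p = 2.23e-06) in F1295A, and D1240A was below WT by -0.48 (adjusted p = 6.38e-06).

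Of its partners and antagonists, the repressor MXI1 rose in every vector line (0.69, 0.45 and 0.52), MXD4 rose in each (0.25, 0.28 and 0.29), and MLX fell in each (-0.30, -0.16 and -0.21). MAX, the obligate partner of MYC, fell in WT (-0.27, adjusted p = 0.0348) and D1240A (-0.31, adjusted p = 0.0215), with -0.24 in F1295A (adjusted p = 0.0646). MXD1 fell in WT (-0.30) and F1295A (-0.41), and MXD3 rose in WT (0.27, adjusted p = 0.0388). MNT, MGA and MLXIP passed no test against TKO.

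Some of the 41 genes also carry other nucleolar RNA genes. In the reference annotation 9 of them (22.0%) hold small nucleolar RNA genes on their own strand, 28 in all, against 225 of 11557 tested protein-coding genes (1.95%). GNL3 holds 6, NOP56 5, NOP58 4, NCL and WDR43 3 each, DKC1, TSR1 and PPAN 2 each and POLR1C 1. Of these 9, DKC1 and PPAN were called in all 3 comparisons with TKO, and the like share of all tested genes was not counted. The small RNAs themselves are not captured by poly(A) selection and were not analysed here.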

How the data were processed

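Poly(A) RNA of 12 libraries was sequenced. Per the submitters' processing notes, Trimmomatic 0.36, FastQC 0.11.4, STAR 2.7.9a, RSEM 1.3.1, the GRCh38 build and DESeq2 were used; annotation release and strand setting: not given in the sources used here. Values deposited by the authors were read as FPKM, normalised by gene length and mapped total; the unit was inferred from the RSEM file naming and the column sums. Of 60504 features, 56996 (94.2%) matched GENCODE 29, which gave coordinates. Structural RNA features (7089) were left out. Rescaling between libraries used the trimmed mean of log2 ratios over genes averaging 1 FPKM or more, 30% trimmed from each side. Genes at or above 0.5 FPKM in at least 3 libraries (14391) were fitted on log2(FPKM + 0.5) with limma 3.58.1 under R 4.3.3; this scale understates changes of low genes. Group was the only factor, with a variance trend and 8 residual degrees of freedom. Calls were made at a Benjamini-Hochberg adjusted p under 0.05 over all tested genes. Rescaling hides a change shared by all genes. The scripts were tested on simulated data.

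The members and lists were chosen with earlier results of these data known. All 41 genes could be named, and the rule gave full values to the 8 with the largest called changes per comparison. LYAR, UBTF, BYSL and UTP20 were added after their values were seen. Outside the 41 the rule named NSD2, the 4 genes with the smallest adjusted p per comparison and the MYC network. NOP10 was added after its values were seen. Genes most like each member were not sought, because the libraries fall into separate groups, so no correlation over them is given. Replicate numbers did not pair libraries: same-numbered libraries deviated from their group means with correlations from -0.05 to 0.09. Alternatives changed scaling, filter, pseudocount, library weights, structural RNAs, neighbours, replicate block, groups fitted, minimum fold and each library in turn.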

Additional observations from a re-analysis of the deposited data

Results flagged for a closer look

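The 15 values listed here are the calls between vector lines already given (limma, adjusted over all tested genes, 3 libraries a group). TKO drops out of such a difference, so they are no further test. Between D1240A and WT, 11 of the 41 were called (26.8%, against 19.1% of all tested genes). Between D1240A and F1295A, 4 were (9.76%, against 6.09%). Leaving out 1 library ended 7 of the 11 calls and all 4 of the others in at least 1 fit. Between D1240A and WT, the log2 difference was 0.14 for UBTF (adjusted p = 0.0156), -0.30 for FBL (adjusted p = 0.00892), -0.28 for NHP2 (adjusted p = 0.00295), -0.24 for IMP4 (adjusted p = 0.0149), -0.23 for RRP9 (adjusted p = 0.00272), -0.21 for BOP1 (adjusted p = 0.0044), -0.16 for NOP56 (adjusted p = 0.0369), -0.15 for TCOF1 (adjusted p = 0.0348), -0.14 for RRP12 (adjusted p = 0.0488), -0.11 for GAR1 (adjusted p = 0.0169) and -0.11 for DDX21 (adjusted p = 0.0331). Between D1240A and F1295A it was -0.24 for NHP2 (adjusted p = 0.0208), -0.16 for PPAN (adjusted p = 0.0305), -0.15 for NPM1 (adjusted p = 0.0493) and -0.14 for GAR1 (adjusted p = 0.0158). D1240A also had the highest NSD2 level of the 3 vector lines and holds the library rich in ribosomal RNA features.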

How the results depend on the processing

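Of 76 called values, 8 kept their call under all 24 alternatives and 32 under all but the 1.5-fold minimum, and 52 kept it whichever library was left out. Median-ratio scaling and pseudocounts of 0.1 and 1 changed no call; a filter at 1 FPKM ended none and added FBL between D1240A and F1295A (5 called). Subtracting the neighbours' median turned 9 called values, all against TKO: DKC1 to 0.005 in WT, 0.044 in D1240A and 0.09 in F1295A, GAR1 to -0.006 in WT and -0.012 in F1295A, NOP16 to -0.113 in WT and -0.112 in D1240A, and, in D1240A, NHP2 to -0.058 and TSR1 to 0.001. It also turned and called 3 that had not been called: GAR1 in D1240A (-0.113) and RRP12 in WT (-0.128) and F1295A (-0.19). That setting called 7 genes between D1240A and WT (18.1% of all tested genes) and 2 between D1240A and F1295A (4.68%). Values as deposited, which moved the median of all genes between D1240A and WT to -0.104, called 11 between F1295A and TKO, 5 between D1240A and WT and 0 between D1240A and F1295A; the cause was not tested. Between D1240A and F1295A, 1 was called without a filter, 2 with library weights and 0 in a fit of only those groups, which called 6 between D1240A and WT. With a 1.5-fold minimum, 3, 2 and 4 were called in WT, D1240A and F1295A against TKO and 0 between vector lines. Leaving out 1 library gave 18 to 21, 18 to 24 and 15 to 18 against TKO, 5 to 12 between D1240A and WT, 0 between F1295A and WT and 0 to 6 between D1240A and F1295A. Numbers did not pair libraries; a replicate block called 19, 21, 16, 8, 0 and 3 genes in the same order. Depth is unknown.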
